A study of Caenorhabditis elegans with 24 samples.

Results

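HSF-1, the transcription factor that turns on heat shock genes, and the insulin-like signalling cascade that ends on the transcription factor DAF-16 were followed gene by gene in adult Caenorhabditis elegans. The genes were taken by symbol from a list of 10 regulators: hsf-1, its negative regulators hsb-1 and ddl-1, and the insulin pathway genes daf-2, age-1, daf-18, akt-1, akt-2, sgk-1 and daf-16. Of these 10, 9 are described here among the 19669 genes of the files, and daf-2, which encodes the insulin-like receptor, was not analysed here. The 9 genes passed the filter on low counts in both assays. The groups were metl-5 worms at 37 °C, metl-5 worms at 20 °C, WT worms at 37 °C and WT worms at 20 °C, where metl-5 worms carry a deletion of C38D4.9. Each group had 3 mRNA-seq libraries and 3 ribosome profiling libraries, 24 in all. Ribosome profiling counts mRNA fragments covered by ribosomes (footprints). The sources used here do not give the time spent at 37 °C, the age of the adults or the origin of the replicates, so p-values measure only the spread between these samples, which may be technical.

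In the insulin-like pathway of C. elegans, the receptor activates the phosphoinositide 3-kinase AGE-1, the phosphatase DAF-18 opposes it, and the kinases AKT-1 and AKT-2 phosphorylate DAF-16, a FOXO factor that is thereby kept out of the nucleus. SGK-1 is a related kinase of the same pathway. HSF-1 binds heat shock gene promoters on heat stress, and HSB-1 and DDL-1 are known as proteins that bind and restrain it. Both factors are known for their roles in worm lifespan and stress resistance, and are largely regulated as proteins, which these assays do not measure.

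The members lie on several chromosomes of the WBcel235 build. The gene hsf-1 (WBGene00002004) spans 11953507 to 11963085 on the minus strand of chromosome I, and daf-16 (WBGene00000912) spans 10750498 to 10776703 on the plus strand of the same chromosome. Exons of daf-16, akt-1 and age-1 share bases with genes on the opposite strand, which are the noncoding RNA gene H36N01.5, rop-1 and B0334.10. The mRNA counts do not use strand, and reads on shared bases cannot be told apart. For akt-1 the count without strand was 35 to 67.2% of the sum of its 2 single-strand counts, and for age-1 79.6 to 98.5%. For the other 7 members it was 99.9 to 100%. The sum, which keeps the shared bases and with them reads of the other gene, was run as an alternative for mRNA and translational efficiency. Exons of ddl-1 share bases with sam-4 on the same strand, which touches both assays.

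Gene counts per mRNA library ran from 15522050 to 17239906. Those of footprint libraries were 4410194 to 10947947 at 37 °C and 11503305 to 19012050 at 20 °C. Transcripts of the 6 yolk protein genes, which adult hermaphrodites make in the intestine, took 0.681 to 4.54% of the footprint counts and 1.55 to 2.62% of the mRNA counts. The deleted gene had 2.15 to 3.38 CPM (counts per 1000000 gene counts) in metl-5 mRNA libraries and 6.48 to 10.2 CPM in WT mRNA libraries. Among the 12 footprint libraries, 4 held more than 3 counts of a gene that marks the other strain. They were metl-5 37 °C replicates 2 and 3, with 63 and 57 counts of ZK228.3, and WT 37 °C replicate 3 and WT 20 °C replicate 2, with 27 and 147 counts of cTel55X.1. The libraries metl-5 20 °C replicates 1 and 3 had a single ZK228.3 count each. A further 2 stood between the temperatures by the heat shock gene hsp-70, at 6909 CPM in WT 37 °C replicate 2 and 5083 CPM in metl-5 20 °C replicate 2. Heat results of the members from footprints are given with all libraries and without these 6. That fit keeps only replicate 1 of each strain at 37 °C, and 2 libraries per strain at 20 °C. The WT library kept at 37 °C had the fewest gene counts of all, 4410194, and 34.8% of its reads were unmapped. All WT heat values of that fit rest on it. In that fit the single libraries are assumed to vary like the other groups.

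Levels below are counts per 1000000 counts after TMM scaling (normalised CPM), and changes are log2 values ± SE from edgeR's quasi-likelihood test, called at a Benjamini-Hochberg adjusted p under 0.05 over all genes tested. A change is set against the rest of a library's transcripts. In whole worms, fewer cells of a type and less RNA per cell cannot be told apart. TMM factors of the mRNA libraries were 0.717 to 1 at 37 °C and 1.10 to 1.42 at 20 °C. With library totals in place of TMM, the median heat change of all genes in mRNA was −0.60 in metl-5 and −0.49 in WT, against −0.01 and −0.02 with TMM. The calls then split into 561 higher and 3248 lower in metl-5 and 627 and 2549 in WT, against 1440 and 1220, and 1300 and 1132, with TMM, and 28.6% and 23.9% of genes were called. In translational efficiency the medians of all genes were 0.54 in metl-5 and 0.50 in WT with library totals, against −0.07 and −0.03 with TMM, and the calls split into 2561 higher and 500 lower, and 2356 and 439, against 1354 and 1174, and 1333 and 1002. The heat changes of single genes are therefore read against these medians. Where heated libraries did not overlap those at 20 °C, this is stated below as a description. The share of all genes without overlap was not counted, so it does not set a member apart. Within a strain an exact two-sided permutation test cannot give a p below 0.1. At an unadjusted p under 0.05 in edgeR's heat test, 4559 of 13315 genes passed in mRNA in metl-5 and 4502 in WT. In footprints 5316 and 4755 of 12387 passed.

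The first question was which regulators changed in mRNA level in heat. In metl-5 worms 1 of the 9 members rose and 2 fell, where 20% of 13315 genes were called, 10.8% higher and 9.16% lower. In WT worms 1 rose and 2 fell, where 18.3% were called, 9.76% higher and 8.5% lower. The genes daf-16 and akt-1 fell in both strains, akt-2 rose in metl-5 and sgk-1 rose in WT. The median change of the 9 members was −0.17 in metl-5 and −0.46 in WT.

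The mRNA of daf-16, the FOXO factor at the end of the pathway, stood at 43.2, 50.7 and 32.2 normalised CPM in metl-5 at 37 °C, against 121.2, 119.8 and 176.9 in metl-5 at 20 °C. In WT it stood at 37.0, 54.1 and 38.3 at 37 °C, against 93.8, 108.2 and 167.9 at 20 °C. Every heated library lay below every library at 20 °C of its strain. The change was −1.73 ± 0.28 in metl-5 (adjusted p = 0.0007, edgeR) and −1.51 ± 0.27 in WT (adjusted p = 0.00189). Both calls held when each of the 12 libraries was left out in turn, and with library totals the changes were −2.28 and −1.95.

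The mRNA of akt-1, a kinase that acts on DAF-16, stood at 29.1, 41.1 and 30.2 normalised CPM in metl-5 at 37 °C, against 82.2, 95.0 and 55.8 in metl-5 at 20 °C. In WT it stood at 22.7, 49.3 and 26.8 at 37 °C, against 60.4, 93.2 and 55.4 at 20 °C. The heated libraries were again all lower, by −1.21 ± 0.31 in metl-5 (adjusted p = 0.0131, edgeR) and −1.08 ± 0.31 in WT (0.0254). Each call was lost without replicate 2 at 20 °C, replicate 1 at 37 °C or replicate 3 at 37 °C of its own strain. The adjusted p then reached up to 0.0652 in metl-5 and 0.118 in WT. Of all genes, 9.21 to 12.4% were called in metl-5 and 8.69 to 12.1% in WT in those fits, against 20% and 18.3% with all libraries. The akt-1 levels above leave out the bases shared with rop-1. Summed over both strands, akt-1 had 1082, 1359 and 793 counts in metl-5 at 37 °C, against 2650, 3450 and 2859 in metl-5 at 20 °C, and in WT 706, 1757 and 755 at 37 °C, against 2056, 2990 and 2776 at 20 °C. The heated libraries were lower in that counting as well, by −0.86 in metl-5 (adjusted p = 0.0162) and −0.83 in WT (0.0205), with rop-1 reads included.

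The related kinase gene akt-2 had a low mRNA level and moved the other way. It stood at 11.5, 10.8 and 12.55 normalised CPM in metl-5 at 37 °C, against 3.40, 5.16 and 3.20 in metl-5 at 20 °C, and rose by 1.56 ± 0.33 (adjusted p = 0.00469, edgeR). In WT it stood at 6.20, 8.52 and 7.08 at 37 °C, against 4.14, 4.04 and 4.76 at 20 °C, a difference of 0.75 ± 0.33 that was not called (0.119). The heated libraries lay above those at 20 °C in both strains. With library totals the differences were 0.94 in metl-5 (adjusted p = 0.0721) and 0.31 in WT (0.565), so the call in metl-5 was lost. The strains were not shown to differ in this response, since the interaction was 0.81 with an unadjusted p of 0.1.

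The mRNA of sgk-1 stood at 13.8, 16.46 and 13.9 normalised CPM in metl-5 at 37 °C, against 8.48, 8.84 and 5.67 in metl-5 at 20 °C, a difference of 0.94 ± 0.34 (adjusted p = 0.0584, edgeR). In WT it stood at 18.8, 14.0 and 18.4 at 37 °C, against 9.92, 10.3 and 4.92 at 20 °C, and rose by 1.02 ± 0.34 (0.0448). Heated libraries were higher in both strains without overlap. The WT call was lost in 9 of the 12 fits that left out 1 library, with adjusted p up to 0.175. It was kept without WT 20 °C replicate 1, WT 37 °C replicate 2 or metl-5 20 °C replicate 3. Where it was lost, 8.57 to 17.6% of all genes were called in WT, against 18.3% with all libraries. A metl-5 call was gained without WT 20 °C replicate 3. With library totals the WT difference was 0.52 (adjusted p = 0.318).

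**Figure D1:**
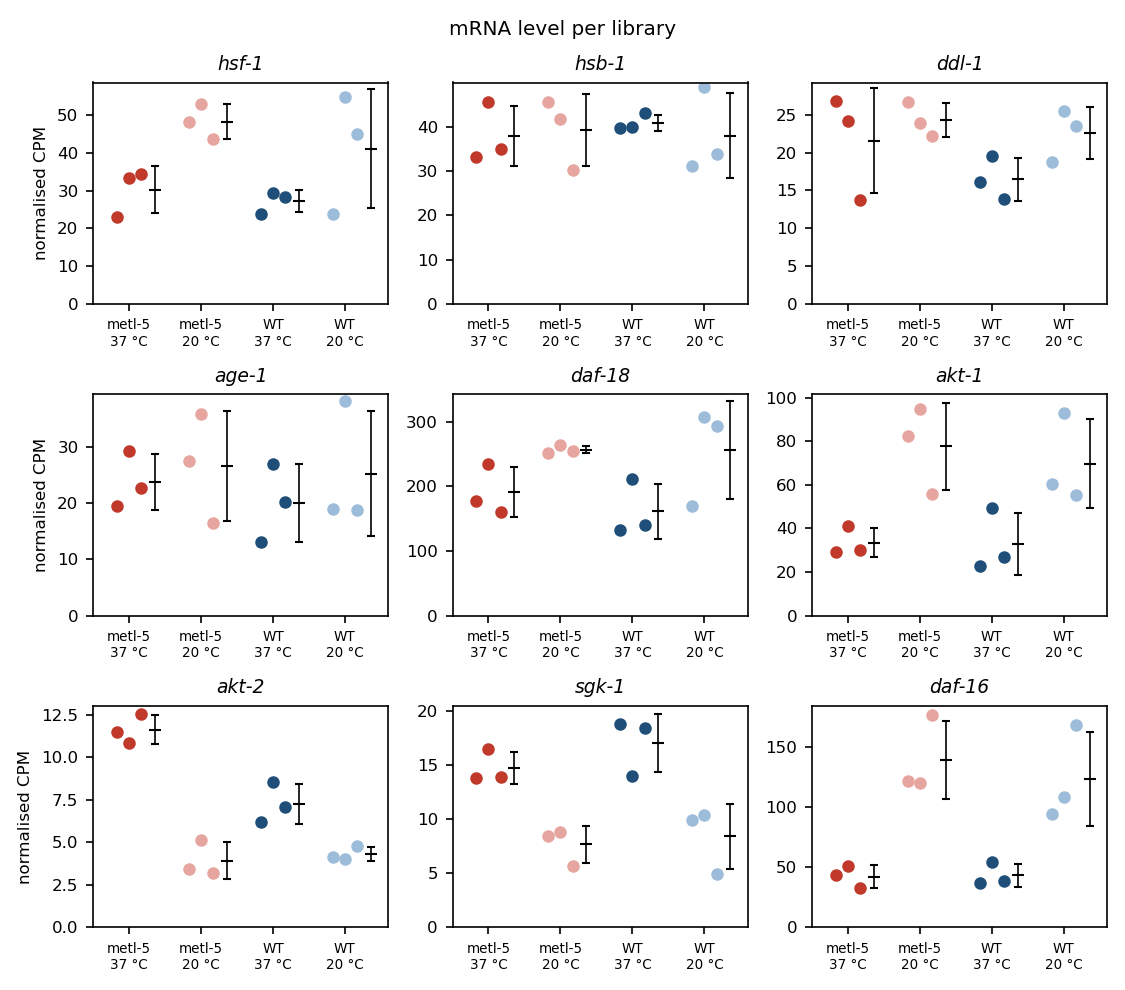
mRNA level of each member in normalised CPM (vertical axis, linear from 0) in every library, by strain and temperature (points), with the mean and SD of the 3 libraries of a group (dash and bar). The 37 °C libraries of daf-16 and akt-1 lie below, and those of akt-2 and sgk-1 above, the 20 °C libraries of the same strain.

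Ratios between members within a library do not depend on how libraries were scaled. Per length of exon, the ratio of akt-2 to akt-1 mRNA was 0.252 to 0.397 in metl-5 at 37 °C and 0.0396 to 0.0549 in metl-5 at 20 °C. In WT it was 0.165 to 0.261 at 37 °C and 0.0414 to 0.0822 at 20 °C. The ratio of sgk-1 to akt-1 mRNA was 0.558 to 0.661 in metl-5 at 37 °C and 0.130 to 0.144 in metl-5 at 20 °C, and in WT 0.395 to 1.15 at 37 °C and 0.124 to 0.229 at 20 °C. None of these 4 pairs of ranges overlapped, and with 3 libraries against 3 an exact two-sided permutation test cannot give a p below 0.1. They do depend on how akt-1 was counted. With both strands summed, akt-2 to akt-1 was 0.125 to 0.18 in metl-5 at 37 °C and 0.0204 to 0.0349 in metl-5 at 20 °C, and in WT 0.0773 to 0.114 at 37 °C and 0.0262 to 0.034 at 20 °C. The ratio of sgk-1 to akt-1 was then 0.232 to 0.29 in metl-5 at 37 °C and 0.0526 to 0.0872 in metl-5 at 20 °C, and in WT 0.185 to 0.432 at 37 °C and 0.0456 to 0.119 at 20 °C. The ranges did not overlap there either. In footprints akt-2 to akt-1 was 0.677 to 1.03 in metl-5 at 37 °C and 0.549 to 0.569 at 20 °C. In WT it was 0.587 to 1.13 and 0.425 to 0.65, with overlap. For sgk-1 to akt-1 the footprint ranges overlapped in both strains, with lower means in heat. The means were 0.555 at 37 °C and 0.733 at 20 °C in metl-5, and 0.533 and 0.813 in WT.

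The mRNA of hsf-1 stood at 23.1, 33.3 and 34.4 normalised CPM in metl-5 at 37 °C, against 48.2, 53.0 and 43.6 in metl-5 at 20 °C. In WT it stood at 23.8, 29.4 and 28.3 at 37 °C, against 23.8, 54.7 and 44.9 at 20 °C. The groups overlapped in WT through replicate 1 at 20 °C and did not in metl-5. The differences were −0.67 ± 0.28 (adjusted p = 0.1, edgeR) and −0.60 ± 0.28 (0.147). Without WT 20 °C replicate 1 the gene was called in both strains, where 21% of all genes in metl-5 and 20.7% in WT were. With library totals it fell by 1.27 in metl-5 (adjusted p = 0.0157) and by 1.07 in WT (0.0387).

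The genes of the 2 HSF-1 binding proteins were not called in mRNA. The differences were −0.05 ± 0.24 in metl-5 and 0.11 ± 0.24 in WT for hsb-1, and −0.17 ± 0.28 and −0.46 ± 0.28 for ddl-1. The phosphatase gene daf-18 was the most abundant member by counts, at 160.7 to 235.4 normalised CPM in metl-5 at 37 °C and 252.3 to 263.6 in metl-5 at 20 °C. It differed by −0.43 ± 0.26 in metl-5 (adjusted p = 0.264, edgeR) and by −0.67 ± 0.26 in WT (0.0849). In WT it was called without 20 °C replicate 1 or 37 °C replicate 2, where 20.7% and 21.8% of all genes were called. With library totals daf-18 fell by 0.99 in metl-5 (adjusted p = 0.0355) and by 1.11 in WT (0.0258). For age-1 the mRNA differences were −0.16 ± 0.36 and −0.33 ± 0.36, with overlapping libraries in both strains.

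Ribosome footprints were compared in the same way. In metl-5 worms 2 of the 9 members rose in heat and 0 fell, where 26.9% of 12387 genes were called, 12.2% higher and 14.7% lower. In WT worms 1 rose and 0 fell, where 16.7% were called, 9.78% higher and 6.93% lower. The members called were age-1 in metl-5 and akt-2 in both strains. Footprint libraries with the same replicate number deviated together, and the fits with the replicate number as a block called 4 members in metl-5 and 2 in WT, where 39.5% and 31.3% of genes were called.

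Footprints on age-1, the phosphoinositide 3-kinase gene, stood at 58.6, 55.2 and 76.0 normalised CPM in metl-5 at 37 °C, against 31.2, 41.1 and 28 in metl-5 at 20 °C. In WT they stood at 38.2, 43.5 and 72.9 at 37 °C, against 20.1, 35.1 and 28.03 at 20 °C. The heated libraries were higher in both strains without overlap. The rise was 0.92 ± 0.29 in metl-5 (adjusted p = 0.0352, edgeR), and the difference in WT was 0.89 ± 0.29 (0.0515, or 0.0329 with the replicate block). Without the 6 doubted libraries the values were 0.96 (0.0491) and 0.63 (0.165). The metl-5 call was lost in 5 of 12 fits that left out 1 library, with adjusted p up to 0.127. The library left out was metl-5 20 °C replicate 1 or 3, metl-5 37 °C replicate 1 or 3, or WT 20 °C replicate 3. Of all genes, 0 to 21.9% were called in metl-5 in those fits, against 26.9% with all libraries. In WT a call was gained without 37 °C replicate 2, where 38.8% of all genes were called.

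Footprints on akt-2 stood at 45.3, 42.8 and 34.96 normalised CPM in metl-5 at 37 °C, against 24.4, 27.8 and 22.5 in metl-5 at 20 °C. In WT they stood at 45.4, 28.4 and 38.0 at 37 °C, against 24.9, 20.1 and 20.5 at 20 °C. Every heated library lay above every library at 20 °C of its strain, a separation that was not counted over all genes. The rises were 0.72 ± 0.22 in metl-5 (adjusted p = 0.0325, edgeR) and 0.77 ± 0.22 in WT (0.0395). Without the 6 doubted libraries they were 0.93 (0.0486) and 0.96 (0.0452). The metl-5 call was lost without any 1 of the metl-5 libraries other than 20 °C replicate 2 (adjusted p up to 0.116). Of all genes, 0 to 26.4% were called in metl-5 in those fits, against 26.9% with all libraries. The WT call was lost in 8 of 12 such fits (up to 0.131), where 0 to 10.5% of all genes were called, against 16.7%. It was kept without WT 37 °C replicate 2, metl-5 20 °C replicate 2, or metl-5 37 °C replicate 2 or 3.

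Footprints on daf-16 stood at 52.8, 50.3 and 43.2 normalised CPM in metl-5 at 37 °C, against 73.5, 66.1 and 71.8 in metl-5 at 20 °C. In WT they stood at 48.5, 65.55 and 47.0 at 37 °C, against 71.4, 80.8 and 67.7 at 20 °C. All heated libraries were lower, by a smaller step than in mRNA. The differences were −0.53 ± 0.19 in metl-5 (adjusted p = 0.0561, edgeR, and 0.0283 with the replicate block) and −0.45 ± 0.19 in WT (0.106). Without WT 37 °C replicate 2 both were called, where 34.3% and 38.8% of all genes were. Without the 6 doubted libraries the differences were −0.48 and −0.55.

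Footprints on hsf-1 stood at 71.5, 73.4 and 101 normalised CPM in metl-5 at 37 °C, against 52.6, 62.7 and 55.3 in metl-5 at 20 °C. In WT they stood at 58.3, 62.6 and 104.5 at 37 °C, against 40.7, 53.7 and 58.3 at 20 °C. The highest heated libraries of the 2 strains were both doubted ones. The differences were 0.53 ± 0.25 in metl-5 (adjusted p = 0.131, edgeR) and 0.56 ± 0.25 in WT (0.123), and without the 6 doubted libraries 0.38 and 0.21. For hsb-1 they were 0.65 ± 0.24 (0.0595, or 0.0277 with the replicate block) and 0.55 ± 0.24 (0.111), with every heated library above those at 20 °C in both strains. The hsb-1 call in metl-5 was gained without metl-5 20 °C replicate 2 or WT 37 °C replicate 2, where 24.7% and 34.3% of all genes were called. The hsb-1 differences without the 6 doubted libraries were 0.95 (0.0586) and 0.89 (0.0754).

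The remaining members were not called in footprints. For akt-1, whose mRNA fell, the footprint differences were 0.06 ± 0.19 in metl-5 and 0.18 ± 0.19 in WT. For sgk-1 they were −0.38 ± 0.35 and −0.43 ± 0.35, and the libraries overlapped in both strains. The daf-18 footprints ranged widely in WT at 20 °C, at 17.7, 98.3 and 47.8 normalised CPM, and the heat differences were −0.01 ± 0.48 in metl-5 and 0.31 ± 0.48 in WT. Footprints on ddl-1 numbered 18 to 91 counts per library, and its differences were 0.02 ± 0.36 and 0.03 ± 0.36. None of these 4 was called without the 6 doubted libraries. The differences in metl-5 and WT were then 0.08 and 0.00257 for akt-1, −0.77 and −0.65 for sgk-1, −0.11 and 0.29 for daf-18, and −0.55 and −0.43 for ddl-1.

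**Figure D2:**
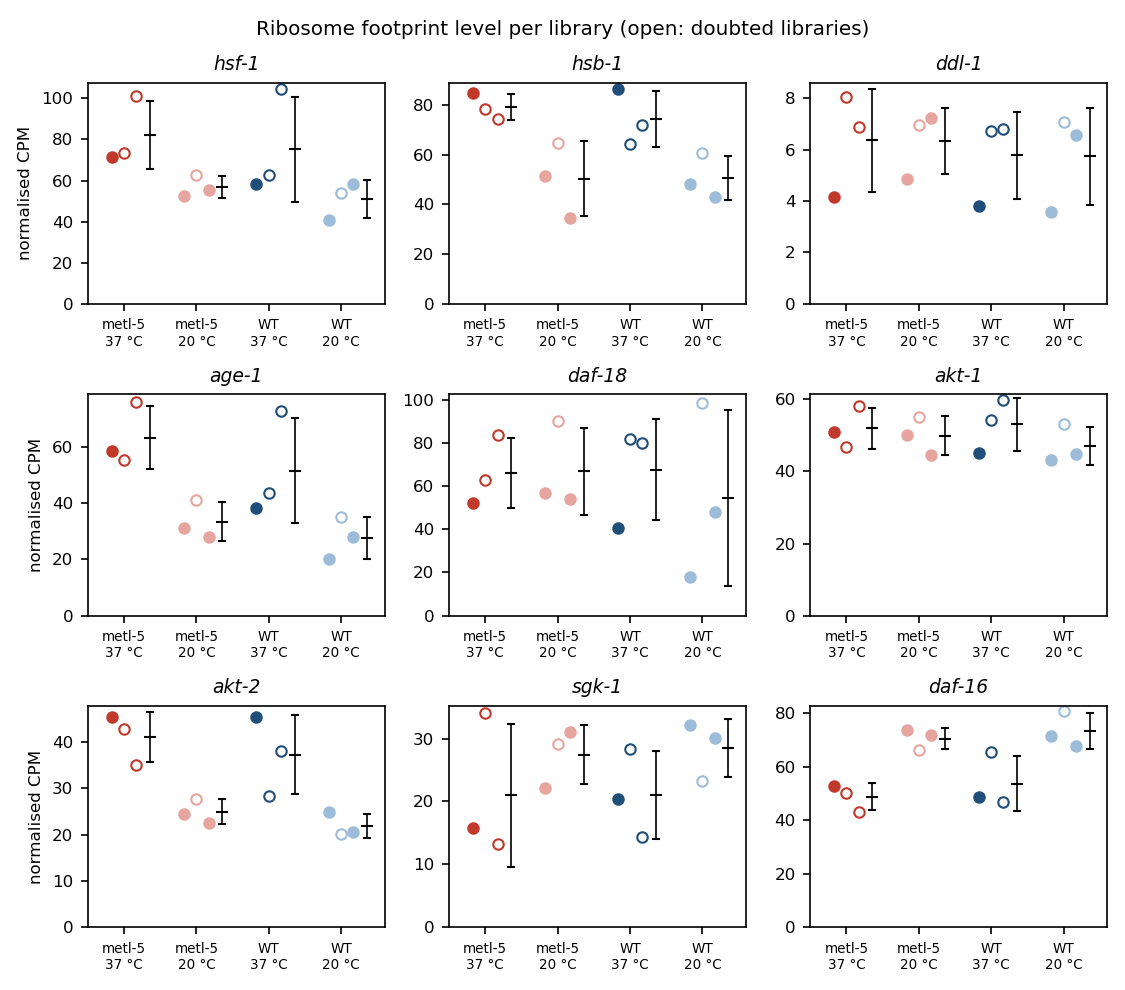
Footprint level of each member in normalised CPM (vertical axis, linear from 0) in every library, by strain and temperature, with the mean and SD of the 3 libraries of a group (dash and bar). Open points are the 6 doubted libraries. The 37 °C libraries of age-1 and akt-2 lie above, and those of daf-16 below, the 20 °C libraries of the same strain.

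Translational efficiency, the footprint level relative to the mRNA level, was tested in one edgeR model over all 24 libraries. In metl-5 worms 3 of the 9 members rose in heat and 0 fell, where 20.9% of 12079 genes were called, 11.2% higher and 9.72% lower. In WT worms 3 rose and 1 fell, where 19.3% were called, 11% higher and 8.3% lower. The genes daf-16, hsf-1 and akt-1 rose in both strains, and sgk-1 fell in WT. Without the 6 doubted footprint libraries 0 members were called in either strain, where 14% of genes in metl-5 and 12.3% in WT were called. At an unadjusted p under 0.05, 5 members in metl-5 and 3 in WT passed edgeR's test in that fit, as did 3333 and 3198 of 12472 genes.

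For daf-16 the rise was 1.25 ± 0.34 in metl-5 (adjusted p = 0.0125, edgeR) and 1.09 ± 0.34 in WT (0.0288). Without the 6 doubted libraries the differences were of like size, 1.33 (0.0603) and 1.03 (0.161). For akt-1 the rise was 1.32 ± 0.38 in metl-5 (0.0163) and 1.27 ± 0.38 in WT (0.0219), and 1.38 (0.0868) and 1.15 (0.171) without them. With the mRNA of both strands summed it was 0.96 in metl-5 (0.0237) and 1.03 in WT (0.0178). For hsf-1 it was 1.25 ± 0.38 in metl-5 (0.0232) and 1.17 ± 0.38 in WT (0.035), and 1.14 (0.129) and 0.86 (0.285) without them. With library totals these 6 changes were 1.59 to 1.94, above the shifted medians of all genes.

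Single libraries also decided these calls, and the share of all genes called fell in some of the same fits. In metl-5 it was 15.8% and 13.5% without its own mRNA 37 °C replicate 1 or 3, against 20.9% with all libraries. In WT it was 12.2% and 13.5% without its own mRNA 37 °C replicate 1 or 3, against 19.3%. In metl-5, daf-16 was lost without mRNA 37 °C replicate 3, akt-1 without mRNA 37 °C replicate 1 or 3, and hsf-1 without mRNA 20 °C replicate 2, mRNA 37 °C replicate 1 or footprint libraries 20 °C replicate 1, 20 °C replicate 3 or 37 °C replicate 3. In WT each of the 3 was lost without mRNA 37 °C replicate 1, mRNA 37 °C replicate 3 or footprint 20 °C replicate 1. There akt-1 and hsf-1 were also lost without mRNA 20 °C replicate 2 or footprint 37 °C replicate 3, daf-16 and hsf-1 without mRNA 20 °C replicate 3, and daf-16 without footprint 20 °C replicate 3 or 37 °C replicate 2. The adjusted p reached 0.092 in metl-5 and 0.15 in WT over these fits.

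The kinase gene sgk-1 fell by 1.44 ± 0.48 in translational efficiency in WT (adjusted p = 0.0372, edgeR), and differed by −1.27 ± 0.48 in metl-5 (0.0621, or 0.0433 with the replicate block). The WT call was lost in 10 of 24 fits that left out 1 library: footprint WT replicates 1 and 3 at either temperature, mRNA WT replicates 1 and 3 at either temperature, and mRNA metl-5 37 °C replicates 1 and 3 (adjusted p up to 0.118). In the fits among these that left out an mRNA library, 12.2 to 23.9% of all genes were called in WT, against 19.3% with all libraries. In metl-5 a call was gained without mRNA WT 20 °C replicate 3 or footprint metl-5 37 °C replicate 2. The fit without that mRNA library called 20.7% of all genes in metl-5, against 20.9%. With library totals the values were −0.86 in WT (0.243) and −0.65 in metl-5 (0.387). For akt-2 the difference was −0.79 ± 0.34 in metl-5 (0.104) and 0.04 ± 0.35 in WT (0.963), and the 2 strains' difference was −0.82 with an unadjusted p of 0.0985.

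Footprint and mRNA libraries of one number also deviated together, and the replicate block called 6 members in metl-5 and 6 in WT, where 24.5% and 23.8% of genes were called. In metl-5 the block added age-1 at 1.09 (adjusted p = 0.0395), hsb-1 at 0.79 (0.0439) and sgk-1. In WT the block added age-1 at 1.20 (0.0285) and daf-18 at 1.23 (0.0469). Without the block age-1 differed by 1.13 ± 0.48 in metl-5 and 1.24 ± 0.48 in WT. In metl-5 and WT hsb-1 differed by 0.758 ± 0.336 and 0.462 ± 0.335, and daf-18 by 0.465 ± 0.575 and 0.985 ± 0.575. For ddl-1 the values were 0.24 ± 0.46 and 0.50 ± 0.46. Without the 6 doubted libraries the differences were 1.21 and 1.02 for age-1 and 1.09 and 0.85 for hsb-1. They were 0.40 and 1.01 for daf-18, and −0.30 and 0.09 for ddl-1. Calls were gained for age-1 without mRNA metl-5 20 °C replicate 3, mRNA WT 20 °C replicate 1 or mRNA WT 37 °C replicate 2, and for daf-18 without footprint WT 20 °C replicate 2. In the age-1 fits 18.1% of all genes were called in metl-5, and 23.9% and 22.6% in WT. With all libraries it was 20.9% and 19.3%. In metl-5 hsb-1 was gained without footprint 20 °C replicate 2 and akt-2 without mRNA 20 °C replicate 2. The akt-2 fit called 16.6% of all genes in metl-5.

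**Figure D3:**
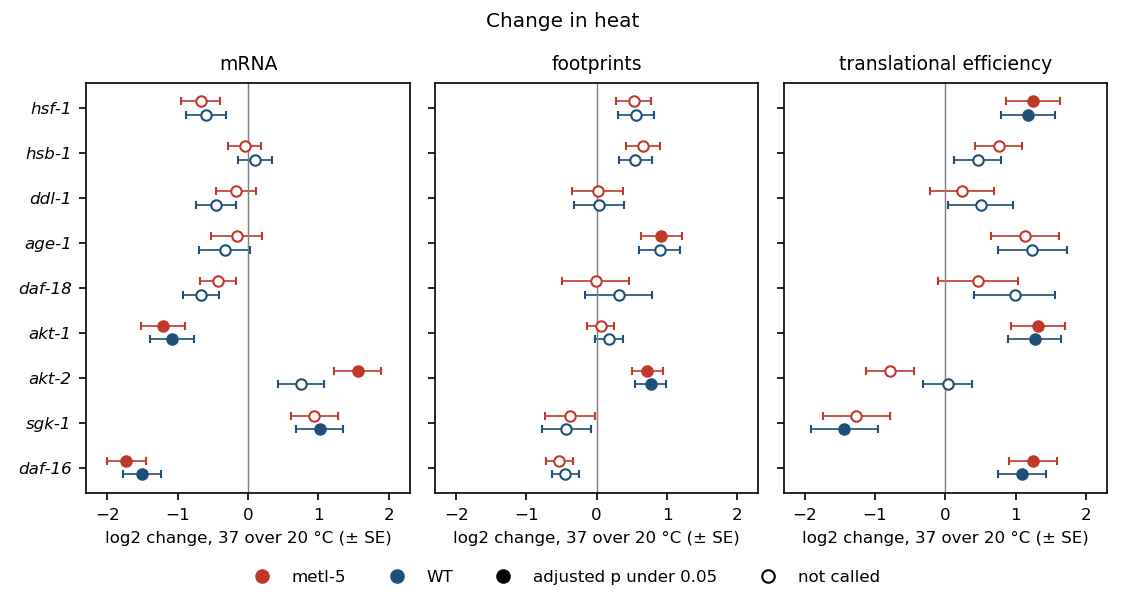
Heat change of each member as log2 of 37 over 20 °C (horizontal axis) in mRNA, footprints and translational efficiency, for metl-5 (red, upper) and WT (blue, lower), with SE. Filled points have an adjusted p under 0.05. For daf-16 the mRNA changes of −1.73 and −1.51 stand beside footprint differences of −0.53 and −0.45.

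The ratio of footprints per coding length to mRNA per exon length, each within its own library total, shows how the members differ in ribosome occupancy. At 20 °C it averaged 7.49 ± 1.74 in metl-5 and 6.84 ± 1.95 in WT for akt-2 (SD, n = 3). It averaged 0.229 ± 0.0423 and 0.196 ± 0.0907 for daf-18, and 0.268 ± 0.0903 and 0.286 ± 0.0324 for ddl-1. By group mean, akt-2 had the highest ratio at 20 °C and daf-18 the lowest. Single pairs went against that order. In WT replicate 3 the ratio was 6.34 for sgk-1 and 5.56 for akt-2. That of ddl-1 lay below that of daf-18 in metl-5 replicates 1 and 2 (0.18 and 0.263, against 0.199 and 0.277) and in WT replicate 2 (0.288, against 0.298). The ratio of hsf-1 was 5.68, 2.88 and 5.38 in metl-5 at 37 °C, against 1.03, 1.02 and 1.35 in metl-5 at 20 °C, and in WT 5.31, 2.80 and 6.77 at 37 °C, against 2.17, 0.975 and 1.41 at 20 °C. The akt-1 ratios rest on mRNA counts without the bases shared with rop-1. Lengths used for ddl-1 include the bases shared with sam-4, whose reads cannot be told apart, and this may touch the 2 assays unequally. The akt-2 ratios at 20 °C rest on 61 to 126 mRNA counts per library. All these ratios carry the shift of the medians given above for library totals.

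**Figure D4:**
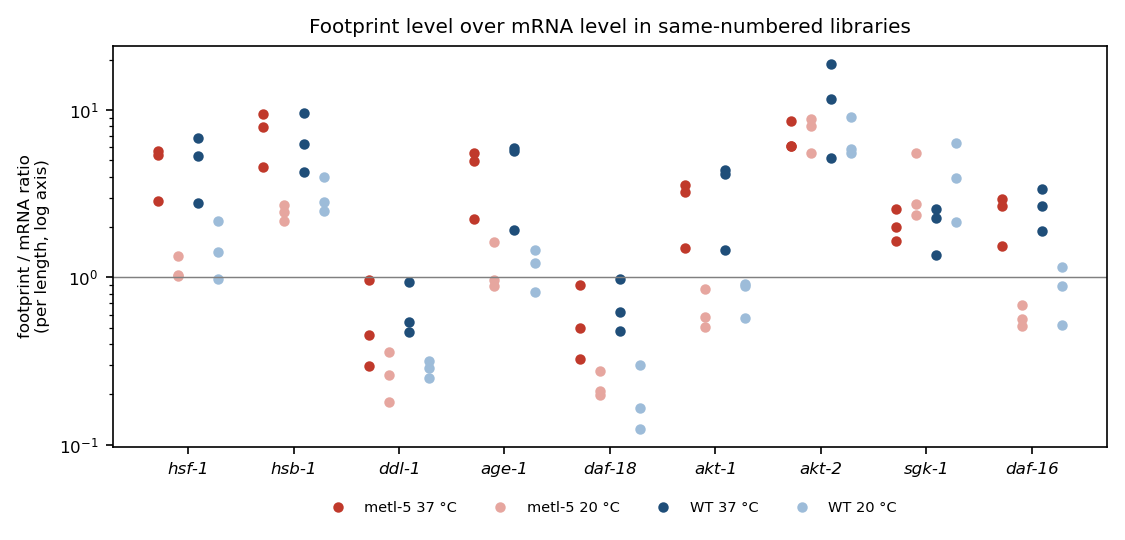
Ratio of the footprint level per coding length to the mRNA level per exon length (vertical log axis, no unit) in same-numbered libraries (points) for each member, by strain and temperature. The akt-2 ratios are above 5 in every pair, and those of daf-18 and ddl-1 are below 1.

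Per length, the order of the members differed between mRNA and footprints. In mRNA at 20 °C, daf-18 came first at 83.2 ± 16.7 in metl-5 and 72.8 ± 27.5 in WT per 1000 exon bases and 1000000 (SD, n = 3). It was followed by hsb-1 at 71.5 ± 23.1 and 60.1 ± 22.6, with overlapping libraries. At 37 °C hsb-1 came first, at 43.9 ± 15.7 in metl-5 and 45.0 ± 9.68 in WT, and its libraries overlapped those of daf-18, at 29.91 to 57.61 in metl-5 and 21.35 to 52.09 in WT. In footprints hsb-1 came first in all 4 groups, at 295.4 ± 19.9 in metl-5 at 37 °C, 175.7 ± 65.6 in metl-5 at 20 °C, 285.4 ± 52.7 in WT at 37 °C and 176.6 ± 36.1 in WT at 20 °C per 1000 coding bases and 1000000. Its coding sequence has 240 bases, the shortest of the 9, and its libraries did not overlap those of the next gene in any group. The next genes, hsf-1 among them, had means between 6.52 and 36.6, and most neighbours in that order overlapped.

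The ratio of hsb-1 to hsf-1 asks how the restraining protein's gene stands to its target's. In mRNA per length it was 4.21 to 5.94 in metl-5 at 37 °C and 2.87 to 3.92 in metl-5 at 20 °C, and in WT 5.61 to 6.88 at 37 °C and 3.11 to 5.43 at 20 °C, without overlap within a strain. In footprints it was 6.18 to 9.95 in metl-5 at 37 °C and 5.25 to 8.66 in metl-5 at 20 °C, and in WT 5.79 to 12.4 at 37 °C and 6.21 to 9.91 at 20 °C, where the ranges overlapped. The ratio of daf-18 to age-1 footprints was 1.09 to 1.40 in metl-5 at 37 °C and 2.23 to 2.69 in metl-5 at 20 °C. In WT it was 1.31 to 2.32 at 37 °C and 1.08 to 3.44 at 20 °C, and overlapped. In mRNA that ratio was 8.37 to 10.7 in metl-5 at 37 °C and 8.67 to 18.3 at 20 °C. In WT mRNA it was 8.19 to 12 and 9.49 to 18.5, with overlap in both strains.

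Whether the deletion of metl-5 altered these regulators was asked at each temperature. With edgeR 0 of the 9 members were called between metl-5 and WT in mRNA, where 0.03% of genes were called at either temperature. In footprints and in translational efficiency 0 members were called, where 0% of genes were called. At an unadjusted p under 0.05 in edgeR, 0 members passed in any of these comparisons, and DESeq2 called 0 as well. Among all genes, 153 of 13315 passed in mRNA at 20 °C and 233 at 37 °C. In footprints 86 and 238 of 12387 passed, and in translational efficiency 48 and 164 of 12079. A count of 0 of 9 members is thus near the share of all genes. The mRNA differences of metl-5 from WT lay between −0.21 for sgk-1 and 0.67 for akt-2 at 37 °C, and between −0.14 for akt-2 and 0.23 for hsf-1 at 20 °C, with SEs of 0.241 to 0.363. Footprint differences lay between −0.14 for daf-16 and 0.30 for age-1 at 37 °C, and between −0.06 for daf-16 and 0.29 for daf-18 at 20 °C, with SEs of 0.19 to 0.482. Of the 12 footprint libraries, 4 held the other strain's marker counts. Without the 6 doubted libraries the footprint differences lay between −0.36 for sgk-1 and 0.63 for age-1 at 37 °C, and between −0.24 for sgk-1 and 0.76 for daf-18 at 20 °C, with adjusted p of 1.

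The smallest unadjusted p of a member was 0.0555, for akt-2 mRNA at 37 °C, where metl-5 libraries stood at 11.5, 10.8 and 12.55 normalised CPM and WT libraries at 6.20, 8.52 and 7.08, without overlap. In translational efficiency the differences ran between −0.51 for akt-2 and 0.23 for sgk-1 at 37 °C, and between −0.25 for daf-16 and 0.31 for akt-2 at 20 °C. Without the 6 doubted libraries they ran between −0.65 for akt-2 and 0.40 for age-1 at 37 °C, and between −0.13 for hsb-1 and 0.74 for daf-18 at 20 °C, again with adjusted p of 1. The heat responses of the strains were compared by the interaction, where 0% of genes and 0 members were called in any assay. In the authors' deposited tables of metl-5 against WT, 0 of the 9 members are called, with adjusted p of 1, and log2 fold changes of −0.19 to 0.69 for mRNA and −0.02 to 0.29 for footprints at 37 °C. The authors' footprint tables lack 2 libraries used here, WT 37 °C replicate 2 and metl-5 20 °C replicate 2, so the sets of libraries differ. A difference that was not called does not show that the strains are alike.

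Genes that act with the members were taken from lists. Of 21 tested further genes of the insulin pathway, 3 rose and 1 fell in mRNA in heated metl-5 worms, and 2 rose and 1 fell in heated WT worms, where 20% and 18.3% of all genes were called. The median was −0.39 in metl-5 and −0.32 in WT, against −0.01 and −0.02 over all genes. The gene pptr-1, which encodes a regulatory subunit of the phosphatase PP2A that acts on AKT-1, fell by 1.21 ± 0.21 in metl-5 (adjusted p = 0.00144, edgeR) and by 0.96 ± 0.21 in WT (0.00673). Its footprints differed by −0.02 and −0.01, and its translational efficiency rose by 1.25 and 0.96. The 14-3-3 gene ftt-2 rose by 0.74 ± 0.22 and 0.82 ± 0.22 and the transcription factor gene pqm-1 by 1.13 ± 0.35 and 1.28 ± 0.35 in mRNA. With library totals neither gene was called, and the list then had 0 higher and 9 lower in metl-5 and 0 higher and 4 lower in WT. In footprints 3 of the 21 rose and 3 fell in metl-5, and 2 rose and 0 fell in WT, where 26.9% and 16.7% of all genes were called. In the fit without the 6 doubted libraries 2 rose and 2 fell in metl-5, and 1 rose and 1 fell in WT. In translational efficiency 4 rose and 0 fell in each strain, where 20.9% and 19.3% of genes were called. That count was 2 in metl-5 and 3 in WT without the 6 doubted libraries. With the replicate block 7 rose in each, and with library totals 8 in metl-5 and 7 in WT, where 25.3% and 23.1% of genes were called.

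Of 14 tested insulin-like peptide genes, 0 were called in mRNA in metl-5, and in WT 1 rose and 1 fell. Of all genes 20% and 18.3% were called there. With library totals 0 rose and 4 fell in metl-5, and 1 rose and 2 fell in WT. In WT ins-4 rose by 2.47 ± 0.56 (adjusted p = 0.00732, edgeR) and ins-37 fell by 1.90 ± 0.50 (0.0161). In metl-5 the differences were 1.26 ± 0.54 (0.109) and −1.03 ± 0.49 (0.147), and with library totals ins-37 fell there by 1.60 (0.0168). In footprints 3 of 10 tested fell in metl-5 and 1 in WT, where 14.7% and 6.93% of all genes fell.

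Known HSF-1 targets rose in heat. In mRNA 11 of 13 tested rose and 0 fell in each strain, where 10.8% of all genes rose in metl-5 and 9.76% in WT. The list's medians were 7.46 in metl-5 and 8 in WT. The small heat shock protein gene hsp-16.2 rose by 9.61 ± 0.44 in metl-5 and 10.2 ± 0.45 in WT (adjusted p = 2.77e-09 and 1.58e-09, edgeR), hsp-16.41 by 9.76 ± 0.55 and 9.98 ± 0.55, and the HSP70 family gene F44E5.4 by 8.31 ± 0.58 and 8.93 ± 0.59. These genes have near-identical copies, so reads could be split between them. In footprints 7 of 11 tested rose in metl-5 and 10 in WT, where 12.2% and 9.78% of all genes rose. The list's median there was 2.59 in metl-5 and 4.23 in WT, and 4.77 and 4.78 without the 6 doubted libraries. In translational efficiency 1 rose in each strain, 3 fell in metl-5 and 1 fell in WT. Among all genes 11.2% and 11% rose there, and 9.72% and 8.3% fell. When the 6 doubted libraries were left out, 0 rose and 0 fell in metl-5, and 1 rose and 0 fell in WT. The list's median in translational efficiency in metl-5 was −1.22 with all libraries and 0.44 without the 6. These shifts are no independent check, since 2 of the 6 were doubted for their level of hsp-70, itself a heat shock gene. In footprints of metl-5 20 °C replicate 2, which is among these 2, hsp-16.2 stood at 1298 CPM. It stood at 4.985 and 2.347 CPM in replicates 1 and 3.

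Of 10 chaperones and partners known to associate with HSF-1 or its chaperone complex, 9 rose in mRNA in each strain. Among all genes 10.8% rose in metl-5 and 9.76% in WT. The gene hsp-90, whose product binds HSF-1, rose by 2.33 ± 0.24 in metl-5 and 2.20 ± 0.24 in WT. The genes hsp-110 and dnj-13, which are on the target list as well, rose by 2.03 and 2.02 in metl-5 and 2.1 and 2.02 in WT. In footprints 7 rose in metl-5 and 6 in WT, where 12.2% and 9.78% of all genes rose. The list's median there was 0.926 in metl-5 and 0.821 in WT, and 0.814 and 0.731 without the 6 doubted libraries. For hsp-90 footprints differed by 0.50 ± 0.23 in metl-5 (adjusted p = 0.121, edgeR) and 0.38 ± 0.23 in WT (0.24). In translational efficiency 0 rose, and 3 fell in metl-5 and 4 in WT, where 9.72% and 8.3% of all genes fell. The changes of hsp-90 were −1.78 and −1.80. The hsf-1 gene and hsp-90 thus stood on opposite sides of 0 in translational efficiency in both strains.

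Of 13 tested genes known to be activated by DAF-16, 2 rose in mRNA in each strain and 0 fell. Of all genes 10.8% rose in metl-5 and 9.76% in WT. The 2 risen targets were hsp-12.6, also an HSF-1 target, at 3.87 ± 0.75 in metl-5 and 3.70 ± 0.75 in WT, and the lysozyme gene lys-7 at 0.97 ± 0.32 and 1.01 ± 0.32. With library totals lys-7 was not called in either strain. In footprints 1 of 12 rose and 2 fell in each strain, where 26.9% and 16.7% of all genes were called. The list's median was −0.34 in metl-5 and −0.29 in WT, and −0.41 and −0.59 without the 6 doubted libraries. In translational efficiency 2 fell in metl-5 and 1 in WT, lys-7 by 2.58 and 2.17. Of all genes 9.72% and 8.3% fell there. With library totals 0 fell, and lys-7 differed by −2.01 (adjusted p = 0.0622, edgeR) and −1.66 (0.126). Of 6 tested genes known to be repressed by DAF-16, dod-22 rose in mRNA by 0.995 ± 0.31 in metl-5 and 1.16 ± 0.31 in WT and was not called with library totals. In footprints 0 of these 6 rose, and 1 fell in metl-5 and 0 in WT, where 26.9% and 16.7% of all genes were called. With the replicate block 2 fell in each strain, where 39.5% and 31.3% of genes were called. The list's median was −1.08 in metl-5 and −0.93 in WT, and −1.47 and −1.63 without the 6 doubted libraries.

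Among 10 other regulators of worm lifespan, 1 rose and 3 fell in mRNA in metl-5, and 2 rose and 2 fell in WT. Of all genes 20% and 18.3% were called there. The autophagy factor gene hlh-30 fell by 1.22 ± 0.27 in metl-5 and 1.15 ± 0.27 in WT, and the hypoxia factor gene hif-1 by 0.92 ± 0.23 and 0.95 ± 0.23. The CREB gene crh-1 rose by 1.35 ± 0.41 and 1.37 ± 0.41, and its coactivator gene crtc-1 rose in WT by 1.40 ± 0.37 and differed by 0.77 ± 0.36 in metl-5. Neither crh-1 nor crtc-1 was called in mRNA with library totals, where 0 of the list rose and 5 fell in metl-5, and 0 rose and 4 fell in WT. In footprints 1 of the 10 rose and 1 fell in each strain, where 26.9% and 16.7% of all genes were called. There crh-1 rose by 1.05 ± 0.231 in metl-5 and 0.756 ± 0.229 in WT. The gene hif-1 differed by −0.979 ± 0.205 and −0.816 ± 0.204, and both genes were also called in footprints with library totals. The list's median was −0.313 in metl-5 and 0.0977 in WT, and −0.314 and 0.0886 without the 6 doubted libraries. Of the 6 yolk protein genes, vit-2 rose in mRNA by 0.83 ± 0.26 in metl-5 and 0.82 ± 0.26 in WT. With library totals it differed by 0.23 (adjusted p = 0.34, edgeR) and 0.33 (0.182), and 1 gene of the list fell in metl-5 and 2 in WT. In footprints 5 fell in metl-5 and 0 in WT, where 26.9% and 16.7% of all genes were called. With the replicate block 6 fell in each strain, where 39.5% and 31.3% of genes were called. The list's median was −1.85 in metl-5 and −1.54 in WT, and −2.36 and −2.73 without the 6 doubted libraries.

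The genes whose pattern was most like that of hsf-1 were ranked by the root mean square difference of mean-centred log2(CPM + 1) over the 8 group means, among 6100 genes with at least 10 CPM in both assays. The nearest were bet-1 (0.0315), B0464.6 (0.0526) and mep-1 (0.0735), where the median over all ranked genes was 0.67. For daf-16 they were ppk-1 (0.0772), let-60 (0.0856) and pkc-1 (0.098), with a median of 0.842. Among the members, akt-1, counted without strand, was the nearest to daf-16 at rank 58 (0.32), and age-1 the nearest to hsf-1 at rank 160 (0.209). The 8 points of each gene share libraries and their depth, and the values are a description with no test.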

How the data were processed

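Messenger RNA sequencing and ribosome profiling libraries were grouped by strain, temperature and assay from the labels. The authors deposited counts of reads per gene, in the layout of STAR gene counts. STAR and DESeq2 are named in the submitters' processing notes. The sources used here do not name the genome build, annotation or library protocols. Tables with log2 fold changes and adjusted p-values of metl-5 against WT were deposited by the authors, per the file headers, and entered no test.

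Unstranded mRNA counts and gene-strand footprint counts were used, since 50.5 to 50.9% of stranded mRNA counts and 99.6 to 99.9% of footprint counts lay on the gene's strand. Reads outside single genes, 19.5 to 27.1% of an mRNA library and 14.8 to 52.1% of a footprint library, were left out. In WT 37 °C footprint replicate 1, 34.8% of reads were unmapped. Of 19669 gene IDs, 19332 had a symbol and 19568 were in the WBcel235 annotation (Ensembl), which gave positions and lengths.

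Genes were filtered with filterByExpr, scaled with TMM and tested with edgeR 4.0.16 (R 4.3.3), fitting the 12 libraries of each assay together, with a Benjamini-Hochberg adjusted threshold of 0.05. Translational efficiency was the assay interaction in a model of all 24 libraries. The scripts were tested on simulated data. Alternatives were RLE size factors, library totals and mRNA counts summed over both strands (both added after seeing the data), no filter, DESeq2 1.42.0, a replicate block, the compared groups alone, footprints without regard to strand, and left-out libraries.

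Same-numbered libraries were taken as paired where every correlation of their deviations from group means was over 0.1. It was 0.157 to 0.601 for footprints, 0.128 to 0.651 between assays and 0.146 to 0.514 for mRNA between strains. Members and lists were chosen with earlier results of these data known. From each list the text names up to 3 called genes with the largest rise and 3 with the largest fall in WT mRNA, and for hsf-1 and daf-16 the 3 genes of nearest pattern.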

Additional observations from a re-analysis of the deposited data

Results flagged for a closer look

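Footprint counts on the strand opposite age-1, which no comparison uses, reached 4 in WT 37 °C replicate 1, above the WT libraries at 20 °C. Exons of B0334.10 share bases with age-1 on that strand.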

How the results depend on the processing

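Of 3303 recomputed heat, strain and interaction values of members, 2906 kept direction and side of the threshold, 93 lost a call, 49 gained one, 255 without a call changed sign and 0 calls reversed. The cause of these changes was not tested, beyond the fewer libraries or genes that a setting holds. Members called in mRNA in heat in metl-5 numbered 3, and 5 with the replicate block or with only the compared groups. Of all genes 20%, 30.4% and 25.1% were called there. Without 1 library the members numbered 2 to 4 in metl-5 and 1 to 5 in WT, with 9.21 to 21.2% and 8.57 to 21.8% of genes called. For mRNA in heat, same-numbered libraries were not paired (correlations of 0.00601 to 0.228 in metl-5, where 3 of 6 libraries correlated best with their own number, and −0.027 to 0.395 in WT, where 4 of 6 did), and the block in WT called 4. Members called in footprints in metl-5 numbered 2, with 1 without the filter, 4 with the replicate block, 4 with DESeq2 and 0 to 4 without 1 library. Of all genes 26.9% were called, and 17.2%, 39.5%, 31.7% and 0 to 34.3% under those settings. In WT footprints the count was 1, where 16.7% of genes were called. It was 2 with library totals, the replicate block, DESeq2 or unstranded footprints (17.9%, 31.3%, 28.7% and 16.8% of genes). It was 3 without the 2 libraries whose hsp-70 level lay between the temperatures, which the authors' footprint tables lack (39.3%). It was 0 without the filter or with only the compared groups (10.4% and 0.986%), and 0 to 3 without 1 library (0 to 38.8%). In translational efficiency in metl-5 the count was 3, with 5 with library totals, 6 with the replicate block, 0 without the 6 doubted libraries and 1 to 4 without 1 library. In WT it was 4, with 1 without the filter, 0 with only the compared groups, 0 without the 6 doubted libraries and 0 to 5 without 1 library. The strain and interaction counts were 0 under every setting run, replicate block included. In translational efficiency in heat, 20.9% of all genes were called in metl-5, 25.3% with library totals and 24.5% with the replicate block. In WT 19.3% were called, 10.7% without the filter and 11.5% with only the compared groups. Depth limits ddl-1 in footprints (18 to 91 counts) and akt-2 in mRNA (61 to 177 counts).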
